A study of Homo sapiens with 12 samples.

Results

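The genes described here encode the subunits of the transcription factor NF-κB (NFKB1, NFKB2, RELA and RELB), its inhibitors of the IκB family (NFKBIA, NFKBIB and NFKBIE), the feedback regulators TNFAIP3 and BIRC3, and the chemokine CXCL8, a classical NF-κB target. They were chosen by name, as 10 of the 22379 genes in the table, and all 10 passed the filter on low values that left 13811 genes for testing. NF-κB dimers are held in the cytoplasm by IκB proteins, and signals that activate the IκB kinase complex cause the IκB proteins to be degraded, so that the dimers enter the nucleus. There they switch on inflammatory and survival genes and also their own inhibitors, which closes a negative feedback loop. Messages of such feedback genes and of chemokines are known for rapid turnover, so their level depends on continued synthesis.

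The cells were U2OS, a human osteosarcoma line. They had been transfected with a Cas9 plasmid whose guide had no target in the genome (NONT), was directed at NUP93, a scaffold protein of the nuclear pore (NUP93-KO), or was directed at EXOSC5, a subunit of the RNA exosome, which degrades RNA from its 3′ end (EXOSC5-KO). Each of the 3 genotypes was left without triptolide, which the labels give as DMSO or untreated, or was exposed for 8 h to 1 µM triptolide, a compound that blocks initiation by RNA polymerase II through the TFIIH helicase XPB. This gave 6 groups of 2 libraries of polyadenylated RNA. The knockout cells were transfected pools selected with puromycin and not clones, so unedited cells may remain in them, and the NUP93 and EXOSC5 pools had a shorter selection and expansion than the NONT pool. The labels do not say that the 2 replicates came from separate cultures, so p-values measure the spread between these libraries, which may be technical. Groups of bulk cells cannot tell fewer expressing cells apart from less RNA per cell.

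The depth was about 8.65 M to 11.96 M reads (M for mega) per library, as estimated from the spacing of the lowest values. All values below are spike-in normalized: the authors scaled each library to 92 ERCC spike-in RNAs, added in proportion to the counted cells, so a library with less mRNA per cell has a lower total. The totals of these values were 11.3 M to 16.4 M in the untreated libraries and 4.90 M to 8.79 M under triptolide. The untreated NONT libraries stood furthest apart, at 11.3 M and 16.4 M, and replicate 2 was the higher one for 9 of the 10 genes, all but CXCL8. NUP93 mRNA in the untreated state was 1395 and 1432 in NUP93-KO, with 1753 and 2489 for NONT (log2 fold change −0.56 ± 0.20 SE, limma adjusted p = 0.926), which is no call. Under triptolide it was 801 and 1019 against 1007 and 899, which overlap (−0.07 ± 0.20, adjusted p = 0.767). EXOSC5 mRNA was 216 and 148 in untreated EXOSC5-KO, with 299.4 and 481 for NONT (−1.08 ± 0.29, adjusted p = 0.151), and under triptolide 75.2 and 102 against 266 and 208 (−1.42 ± 0.29, adjusted p = 0.0030). Edited transcripts can still be sequenced, so mRNA level is an incomplete check of either knockout. Of 10 osteosarcoma and mesenchymal markers, SP7 and TWIST1 were listed at 0 in all libraries, while COL1A1, SPARC and VIM were abundant. COL1A2 was at most 42.0 and BGLAP at most 5.68 in any library. RUNX2, ALPL and S100A4 were 107 to 403.5 in the untreated libraries.

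The promoter sequences are shown because NF-κB drives several of these genes itself. RefSeq promoters (GRCh38.p14, from 250 bases before to 50 after a start site) were matched by symbol for 8 of the 10 genes, in 13 windows of 300 bases. The κB consensus of 10 bases, searched on both strands, was present in 7 windows of 6 genes, against 11.3% of 35116 promoters. The shorter letters GGNNNTTCC, which overlap it, were present in 8 windows of 7 genes, against 20.1% of those promoters. A match is a description of letters only. By GENCODE release 44 (GRCh38), NFKBIA lies at chr14:35401079-35404749 with 6 exons in the canonical transcript, TNFAIP3 at chr6:137867214-137883314 with 9, CXCL8 at chr4:73740519-73743716 with 4 and RELA at chr11:65653599-65663090 with 11. In the windows below, capitals mark a match to either pattern on either strand. NFKBIA (chr14:35404700-35404999, minus strand) carries them at 242 and 81 bases before its start, and TNFAIP3 (chr6:137867009-137867308, plus strand) carries a pair starting 67 and 55 bases before its start. CXCL8 (chr4:73740319-73740618, plus strand) holds GGNNNTTCC only, 91 bases before its start, and RELA (chr11:65662867-65663166, minus strand) holds neither.
NFKBIA: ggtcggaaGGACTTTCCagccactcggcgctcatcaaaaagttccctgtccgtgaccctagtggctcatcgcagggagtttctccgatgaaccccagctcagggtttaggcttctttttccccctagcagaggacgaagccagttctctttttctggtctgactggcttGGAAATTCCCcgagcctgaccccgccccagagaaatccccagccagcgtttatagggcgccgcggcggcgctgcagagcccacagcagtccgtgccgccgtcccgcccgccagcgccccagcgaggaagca
TNFAIP3: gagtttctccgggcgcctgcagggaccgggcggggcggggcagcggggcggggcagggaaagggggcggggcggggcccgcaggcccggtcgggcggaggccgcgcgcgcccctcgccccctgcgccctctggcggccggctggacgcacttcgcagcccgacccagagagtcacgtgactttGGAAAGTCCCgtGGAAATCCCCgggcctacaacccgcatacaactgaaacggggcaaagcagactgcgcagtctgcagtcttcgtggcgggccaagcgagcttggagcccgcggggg
CXCL8: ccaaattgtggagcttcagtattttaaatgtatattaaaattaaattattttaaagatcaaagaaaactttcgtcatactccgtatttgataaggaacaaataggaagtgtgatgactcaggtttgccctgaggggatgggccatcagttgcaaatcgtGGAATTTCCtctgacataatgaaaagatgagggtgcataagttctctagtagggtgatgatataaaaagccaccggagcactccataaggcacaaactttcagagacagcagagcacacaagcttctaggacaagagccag
RELA: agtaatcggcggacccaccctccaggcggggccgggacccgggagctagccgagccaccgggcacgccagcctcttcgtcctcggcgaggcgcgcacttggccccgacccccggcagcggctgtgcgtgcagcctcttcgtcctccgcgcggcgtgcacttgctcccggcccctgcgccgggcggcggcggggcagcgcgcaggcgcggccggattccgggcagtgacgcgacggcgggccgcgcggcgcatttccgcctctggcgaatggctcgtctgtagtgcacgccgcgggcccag

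In untreated cells the message for RELA, the main transactivating subunit, was the most abundant of the 10 per length of transcript, at 745 ± 87.3 per kilobase (SD, n = 6 untreated libraries of 3 genotypes). NFKB2, which encodes the precursor of the noncanonical pathway, followed at 485 ± 84.5 per kilobase. NFKBIA, RELB, NFKBIB and NFKBIE lay between 224 and 274 per kilobase, within about 1 SD of each other, so their order is not resolved. NFKB1, encoding the p105 precursor of p50, was at 164 ± 40.7, CXCL8 at 89.8 ± 48.0 and TNFAIP3 at 25.4 ± 5.38 per kilobase. BIRC3 spanned 15.7 to 39.3 per kilobase. TNFAIP3 and BIRC3 overlapped, and CXCL8 spanned 36.8 to 155 per kilobase, lowest in the NONT libraries and highest in an EXOSC5-KO library. These lengths are those of the canonical GENCODE transcript, and NFKBIA moved from rank 3 to rank 5 with the longest transcript. NFKBIB is uncertain as a level, because another gene identifier had the same value in every library and reads may have been split between them. Summed over both rows it was 455 ± 55.9 per kilobase.

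**Figure D1:**
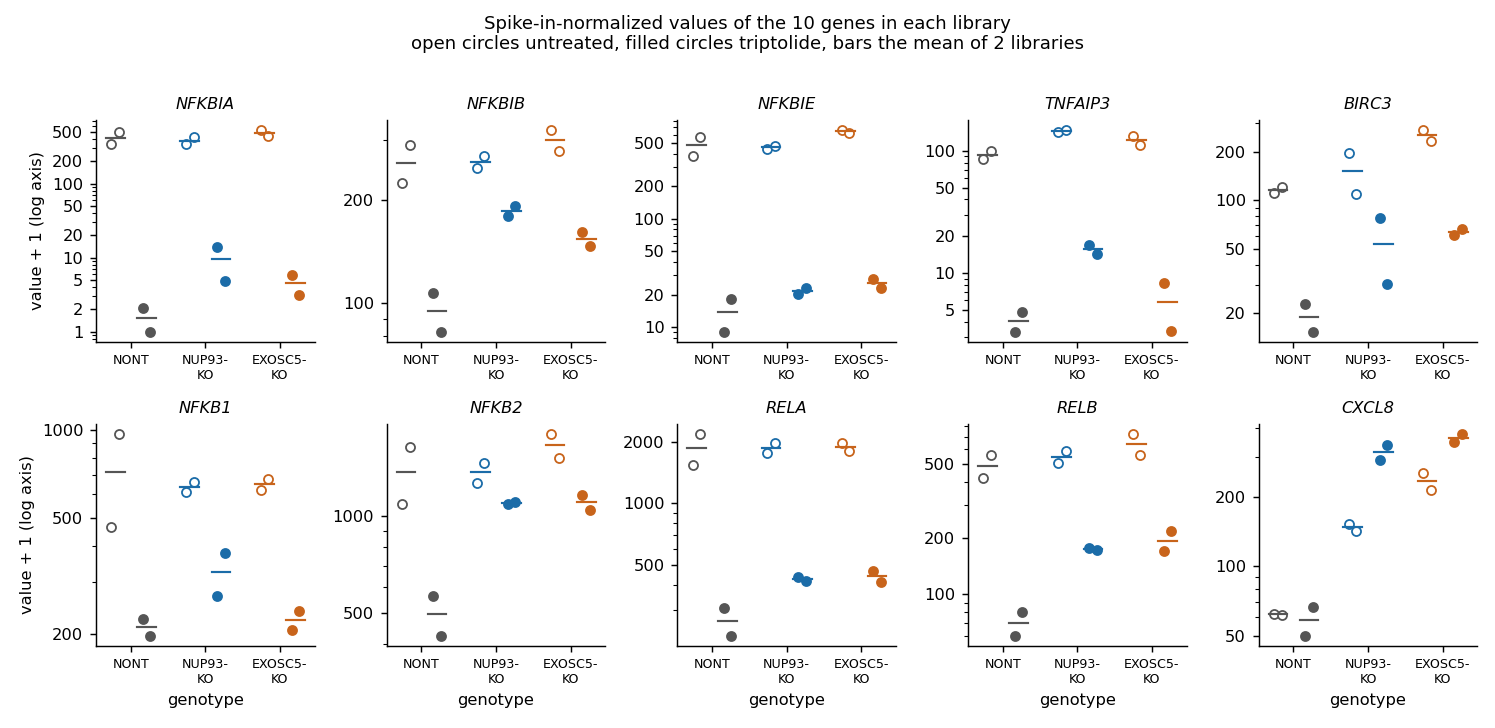
Spike-in-normalized value plus 1 of each gene (log axis) in the 2 libraries of each genotype, untreated (open) and under triptolide (filled), with bars at group means. The filled circles lie below the open ones of the same genotype for 9 of the 10 genes in all 3 genotypes, as for 94.8%, 79.1% and 88.0% of all genes tested in NONT, NUP93-KO and EXOSC5-KO respectively, while CXCL8 under triptolide was 290.1 to 375 in the knockouts and 49.0 to 65.5 in NONT.

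Triptolide lowered 9 of the 10 messages in NONT cells, and none rose. CXCL8 was the exception. The background was high, since 90.0% of all genes tested were called lower in NONT and 0.0507% higher. In NUP93-KO cells 7 of the 10 were called lower and 1 higher, beside 55.1% and 0.138% of all genes. In EXOSC5-KO cells 9 were called lower and 1 higher, beside 64.3% and 0.0796%. In either direction 90.0%, 55.2% and 64.4% of all genes were called. The counts of genes called lower thus stood beside a background that covers most of the transcriptome. The median log2 fold change of the 10 genes was −2.71 in NONT, −1.61 for NUP93-KO and −1.85 for EXOSC5-KO, while that of all genes was −1.62, −0.92 and −1.08. Fold changes are on the log2(value + 1) scale, which understates the change of low genes, and each call is an adjusted p under 0.05 from limma over all genes tested.

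**Figure D2:**
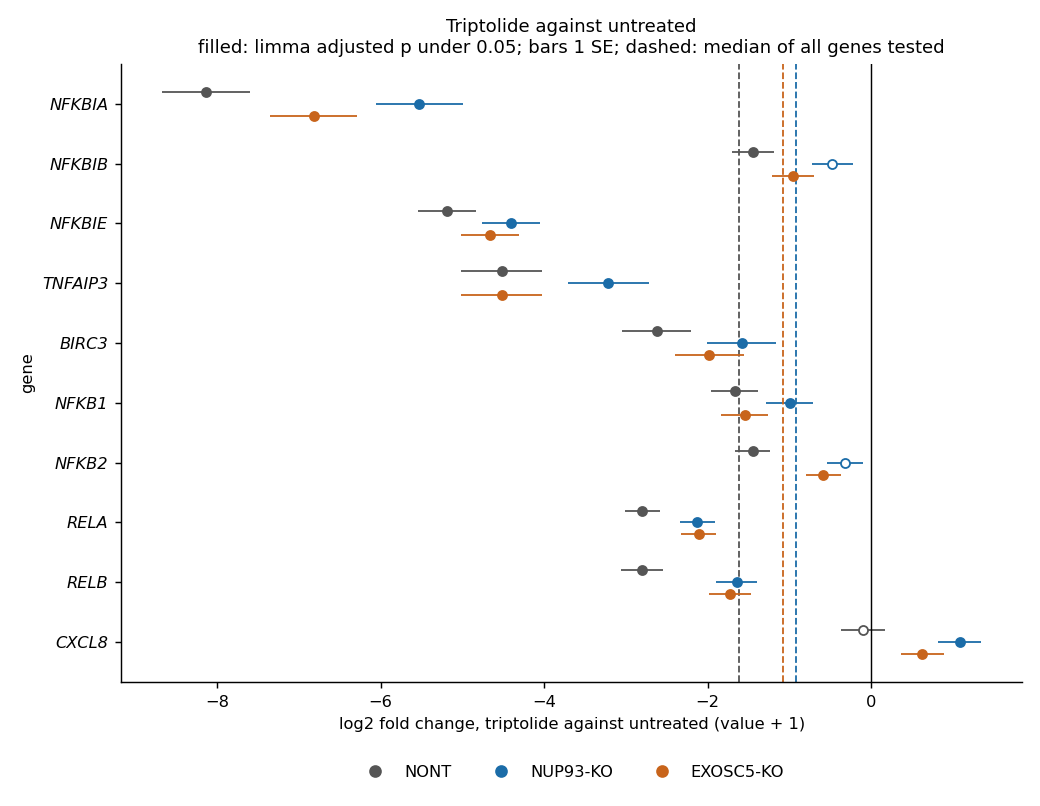
Log2 fold change of each gene under triptolide against untreated cells (x axis) for each genotype, with 1 SE, filled where the limma adjusted p is under 0.05; dashed lines are the medians of all genes tested. NFKBIA lies furthest to the left, at −8.14, −5.52 and −6.82, and CXCL8 furthest to the right, at −0.10, 1.08 and 0.63.

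NFKBIA, which encodes IκBα, a direct target of NF-κB and its best-studied inhibitor, was nearly lost. In NONT it was 337 and 490.1 untreated and 1.09 and 0 under triptolide, so replicate 2 was listed at 0. That leaves about 2 reads over both treated libraries, or 0.132% of the untreated level. Taken as 2 whole reads, it would be 0.146%, with an exact 95% Poisson interval of 0.0176% to 0.526%. The reads are estimates that may not be whole, and the interval covers counting error only. In NUP93-KO the values were 338 and 423 untreated against 13.1 and 3.83 treated, and in EXOSC5-KO 526 and 445 against 4.82 and 2.16. The treated libraries lay far below the untreated ones in all 3 genotypes. The log2 fold changes were −8.14 ± 0.54, −5.52 ± 0.54 and −6.82 ± 0.54 (SE; limma adjusted p = 1.3e-09, 2.5e-07 and 2.4e-08). The size in NONT depends on the pseudocount, from −8.83 with 0.5 to −6.22 with 5. NFKBIA stood at percentile 0.0507 of all 13811 fold changes in NONT, 0.876 for NUP93-KO and 0.261 for EXOSC5-KO, counted from the most negative.

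The other IκB messages differed widely in what remained. NFKBIE, encoding IκBε, was 379.6 and 575 untreated and 8.07 and 17.3 treated in NONT, 441 and 475 against 19.4 and 22.0 in NUP93-KO, and 659.9 and 624 against 26.9 and 22.2 in EXOSC5-KO. It kept 2.66%, 4.52% and 3.82% of its untreated level and fell in each genotype (−5.18 ± 0.35, −4.40 ± 0.35 and −4.66 ± 0.35; adjusted p at most 3.8e-08). NFKBIB, encoding IκBβ, which NF-κB induces little, was 224 and 289.8 untreated and 106 and 81.5 treated in NONT. In NUP93-KO it was 247 and 269 against 179 and 192, and in EXOSC5-KO 320.1 and 277 against 161 and 146. The groups did not overlap in any genotype, yet NFKBIB kept 36.5% in NONT, 71.9% for NUP93-KO and 51.4% for EXOSC5-KO. Its decrease was called in NONT (−1.44 ± 0.25, limma adjusted p = 6.9e-05) and EXOSC5-KO (−0.95 ± 0.25, adjusted p = 0.0037) and not in NUP93-KO (−0.47 ± 0.25, adjusted p = 0.127).

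TNFAIP3 encodes A20, a ubiquitin-editing enzyme that ends signalling to NF-κB, and BIRC3 encodes cIAP2, a ubiquitin ligase of the TNF receptor complex and of the noncanonical pathway. TNFAIP3 was 84.0 and 97.7 untreated and 2.32 and 3.81 treated in NONT, 141 and 147 against 16.0 and 13.3 in NUP93-KO, and 131 and 111 against 7.33 and 2.38 in EXOSC5-KO. It kept 3.37%, 10.2% and 4.01% and fell in all 3 genotypes (−4.52 ± 0.50, −3.22 ± 0.50 and −4.52 ± 0.50; adjusted p = 4.0e-07, 3.4e-05 and 8.1e-07). BIRC3 was 109.7 and 119 against 21.7 and 14.4 in NONT, 193 and 108 against 76.3 and 29.4 in NUP93-KO, and 270.2 and 231 against 60.3 and 65.1 in EXOSC5-KO. The 2 NUP93-KO replicates of BIRC3 were far apart in both states. Its fold changes were −2.62 ± 0.43, −1.58 ± 0.43 and −1.98 ± 0.43 (adjusted p = 3.0e-05, 0.00446 and 0.000696), with 15.8% kept in NONT and 35.1% in NUP93-KO.

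Among the subunits, RELA and RELB had more negative fold changes than NFKB1 and NFKB2, a difference that was not tested. RELA was 1548 and 2185 untreated and 307 and 225 treated in NONT, 1759 and 1971 against 435 and 417 in NUP93-KO, and 1980.4 and 1808 against 467 and 411 in EXOSC5-KO. RELB, the transactivating partner of the noncanonical pathway, was 419 and 559 against 59.0 and 79.7 in NONT, 503 and 589 against 175 and 171 for NUP93-KO cells, and 724 and 558 against 169 and 216 in EXOSC5-KO. Both fell in each genotype: the fold changes were −2.80 ± 0.21, −2.13 ± 0.21 and −2.11 ± 0.21 for RELA and −2.80 ± 0.26, −1.65 ± 0.26 and −1.73 ± 0.26 for RELB (adjusted p at most 3.72e-05). RELA and RELB each kept 14.2% to 14.3% in NONT, beside 22.8% and 31.7% for NUP93-KO and 23.2% and 30.0% for EXOSC5-KO.

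NFKB1 was 464 and 966 untreated in NONT, the widest pair of its untreated groups, and 224 and 196 treated. It was 609.9 and 663 against 269 and 378 for NUP93-KO cells and 619 and 677 against 205 and 239 in EXOSC5-KO. The fold changes of −1.67 ± 0.29, −0.99 ± 0.29 and −1.54 ± 0.29 were called in each genotype (adjusted p = 5.3e-05, 0.00726 and 0.000187) and stood at percentile 48.1, 47.4 and 35.2 of all genes. NFKB2 was 1091 and 1641 against 564 and 423 in NONT, 1269 and 1465 against 1087 and 1102 for NUP93-KO cells, and 1801 and 1515 against 1163 and 1042 in EXOSC5-KO. It kept 36.2%, 80.1% and 66.5%, and its decrease was called in NONT (−1.45 ± 0.22, adjusted p = 1.3e-05) and EXOSC5-KO (−0.59 ± 0.22, adjusted p = 0.0271), not in NUP93-KO (−0.32 ± 0.22, adjusted p = 0.233).

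CXCL8 encodes interleukin-8, a chemokine that draws neutrophils. In NONT it was 61.2 and 60.4 untreated and 49.0 and 65.5 under triptolide, and the groups overlapped. In NUP93-KO the untreated libraries were at 152 and 142 and the treated ones at 290.1 and 337. In EXOSC5-KO they were at 255 and 214 untreated and 347 and 375 treated. The treated libraries of both knockouts were all above their untreated ones, at 213% of the untreated mean in NUP93-KO (190.6% to 237% over the 4 pairings) and 154% in EXOSC5-KO (136% to 176%). CXCL8 rose in NUP93-KO (1.08 ± 0.27, limma adjusted p = 0.0023) and in EXOSC5-KO (0.63 ± 0.27, adjusted p = 0.0482), while in NONT it gave −0.10 ± 0.27 (adjusted p = 0.719). The NUP93-KO call held in 21 of 21 alternatives. The EXOSC5-KO call held in 11 of 21: it was lost when any of the 8 knockout libraries was left out (adjusted p = 0.0670 to 0.228). CXCL8 stood at percentile 98.7, 99.7 and 99.3 of all fold changes for NONT and the NUP93-KO and EXOSC5-KO pools, in that order.

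These directions depend in part on the spike-in scale, and so the libraries were also set to the same total, to the same median of ratios over genes, or to the same sum of mitochondrially encoded mRNAs. NFKBIA, NFKBIE, TNFAIP3, RELA and RELB were called lower in all 3 genotypes on every scale. NFKBIB and NFKB2 in NONT moved from −1.44 and −1.45 on the spike-in scale to 0.19 and 0.19 on the median-of-ratios scale, and NFKB2 was called higher on the latter scale in NUP93-KO (0.58) and EXOSC5-KO (0.49). NFKB1 lost its call in NONT on the same-total scale (−0.33) and the median-of-ratios scale (−0.03, adjusted p = 0.901). It also lost it on both scales in NUP93-KO (−0.43 and −0.10), and with the median of ratios in EXOSC5-KO (−0.48). BIRC3 was likewise not called with the median of ratios, at −1.03, −0.70 and −0.92, nor in NUP93-KO with the same total (−1.02). CXCL8 in NONT was 1.22 on the same-total scale (adjusted p = 0.0020) and 1.52 on the median-of-ratios scale (adjusted p = 0.0004), both called higher. In EXOSC5-KO the rise of CXCL8 was not called on the mitochondrial scale (0.53, adjusted p = 0.0958). The median of all genes in NONT moved from −1.62 to −0.32, −0.02 and −1.28 on the 3 other scales.

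**Figure D3:**
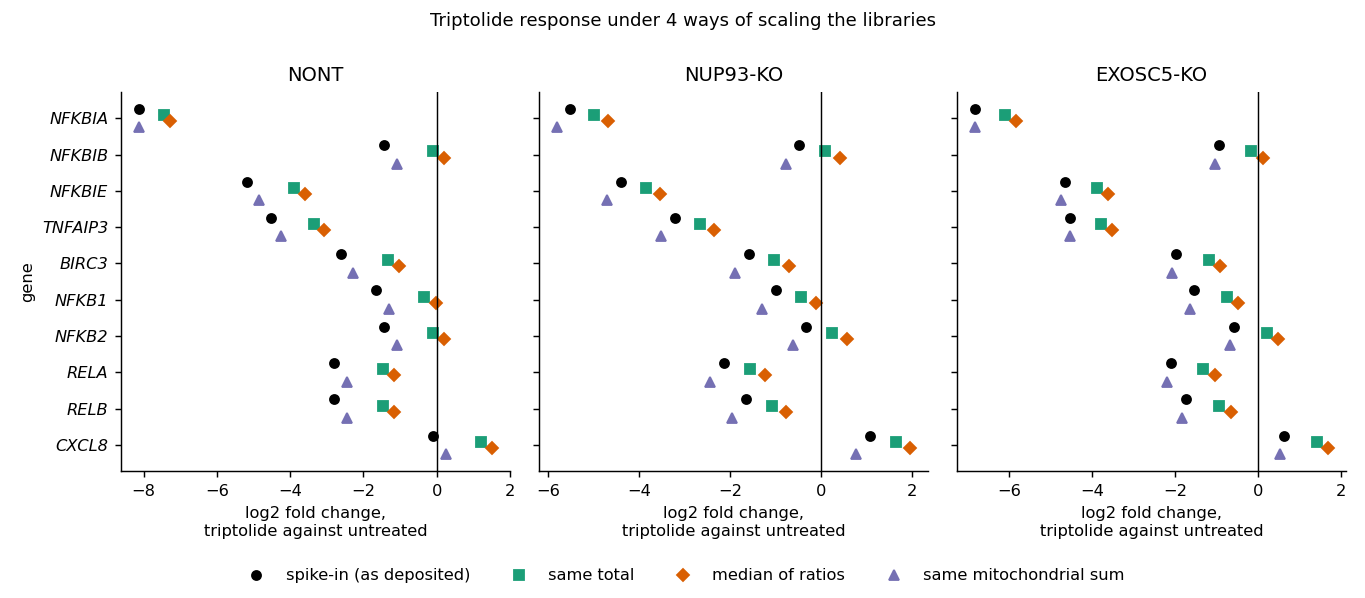
Log2 fold change of each gene under triptolide (x axis) on the deposited spike-in scale and on 3 other scales, for each genotype. NFKBIA, NFKBIE, TNFAIP3, RELA and RELB stay left of 0 on all 4, NFKB2 crosses 0 in each genotype, and CXCL8 in NONT moves from −0.10 to 1.52.

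A ratio of 2 genes within a library does not move when the whole library is rescaled. As plain values, NFKBIA was 19.2% to 26.6% of RELA in the 6 untreated libraries. It was 3.0% and 0.918% in treated NUP93-KO. In treated EXOSC5-KO it was 1.03% and 0.527%, the second from fewer than 3 reads. In treated NONT it was 0.355% from about 2 reads in replicate 1 and listed at 0 in replicate 2, where 3 reads would be 0.650%. Each treated library was thus below each untreated one, while the treated values rest on few reads, so their order between genotypes is not resolved. The next ratios are of log2(value + 1), for genes well above 1. The log2 ratio of CXCL8 to RELA was −4.64 and −5.15 in untreated NONT and −2.62 and −1.77 in treated NONT. In NUP93-KO it went from −3.52 and −3.79 to −0.58 and −0.31, and in EXOSC5-KO from −2.95 and −3.07 to −0.43 and −0.13. The ratio of NFKB2 to NFKB1 was 0.76 and 1.23 in untreated NONT and 1.11 and 1.33 in treated NONT, which overlapped. It was 1.06 and 1.14 against 1.54 and 2.01 in NUP93-KO, and 1.16 and 1.54 against 2.12 and 2.50 in EXOSC5-KO, where the treated libraries were higher.

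Without triptolide, 1 of the 10 genes was called in EXOSC5-KO against NONT and 0 in NUP93-KO. CXCL8 was higher in EXOSC5-KO (255 and 214 against 61.2 and 60.4; 1.92 ± 0.27, limma adjusted p = 0.0022), the single gene of the 10 that was called, beside 0.485% of all genes called higher, 0.0362% lower and 0.521% in either direction, and the call held in 21 of 21 alternatives. In NUP93-KO it was 152 and 142, above both NONT libraries, with a log2 difference of 1.26 ± 0.27 (95% interval 0.70 to 1.82) that was not called over all genes (adjusted p = 0.167). It was called on the same-total (adjusted p = 0.0342) and median-of-ratios (0.0443) scales. No gene of the 10 was called by limma in NUP93-KO, where 1 was under an unadjusted p of 0.05 beside 4.20% of all genes, and of all genes 0.0145% were called higher, 0.00724% lower and 0.0217% in either direction. BIRC3 in EXOSC5-KO was 270.2 and 231 against 109.7 and 119 in NONT, without overlap (1.12 ± 0.43, limma adjusted p = 0.430). A higher level than NONT without overlap was common in untreated cells, at 19.2% of all genes tested in EXOSC5-KO and 7.93% in NUP93-KO. TNFAIP3 in NUP93-KO was 141 and 147, above 84.0 and 97.7 in NONT (0.66 ± 0.50, adjusted p = 1). For RELA the differences were 0.02 (95% interval −0.43 to 0.47) in NUP93-KO and 0.04 (−0.41 to 0.49) in EXOSC5-KO, and for NFKB1 they were −0.07 (−0.68 to 0.53) and −0.05 (−0.65 to 0.56). These intervals leave room for a difference of that size in either direction. NFKBIA was less precise, at −0.10 (−1.24 to 1.03) and 0.25 (−0.88 to 1.39).

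Of the cell type markers tested, 1 was called higher in untreated EXOSC5-KO than in NONT, beside 0.485% of all genes. It was named after its values were seen. CD68, on the list of 8 blood cell markers, was 90.3 and 116 in untreated NONT, 199.6 and 161 for NUP93-KO cells and 285 and 285 in EXOSC5-KO (1.47 ± 0.28 in EXOSC5-KO, limma adjusted p = 0.0242). The summed level of the list, most of which was CD68, was 113 to 147 in untreated NONT, 185 to 223 in NUP93-KO and 299.2 to 331 in EXOSC5-KO. ITGAM, the only other marker of the list that was tested, was 22.2 and 28.7 in untreated NONT, 18.0 and 17.7 for NUP93-KO cells and 11.4 and 46.0 in EXOSC5-KO, with no call. CD3E was listed at 0 in all libraries, and PTPRC, which marks all white cells, was at most 4.70. The sum of 6 epithelial markers was 152 to 225 in untreated NONT, 161 to 173 for NUP93-KO cells and 135 to 158 in EXOSC5-KO. Their part in the CXCL8 difference was not tested.

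Under triptolide the 2 knockouts held more of most of these messages than NONT did. In NUP93-KO 8 of the 10 were called higher and none lower, beside 41.9% of all genes called higher, 0.188% lower and 42.1% in either direction. In EXOSC5-KO 8 were called higher, beside 39.2% higher, 0.195% lower and 39.4% in either direction. The values of all 10 genes did not overlap between treated NUP93-KO and treated NONT, and those of 8 did not overlap between EXOSC5-KO and NONT. Of all genes tested, 75.6% and 75.1% were likewise higher in the knockout without overlap. The median difference from NONT stood at 1.24 for NUP93-KO, 1.07 for EXOSC5-KO, while that of all genes was 0.66 and 0.65. Both comparisons share the 2 treated NONT libraries, and leaving out replicate 2 of them brought the count down to 4 in each. In EXOSC5-KO the count was also 4 without treated replicate 1 and 5 without treated replicate 2.

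**Figure D4:**
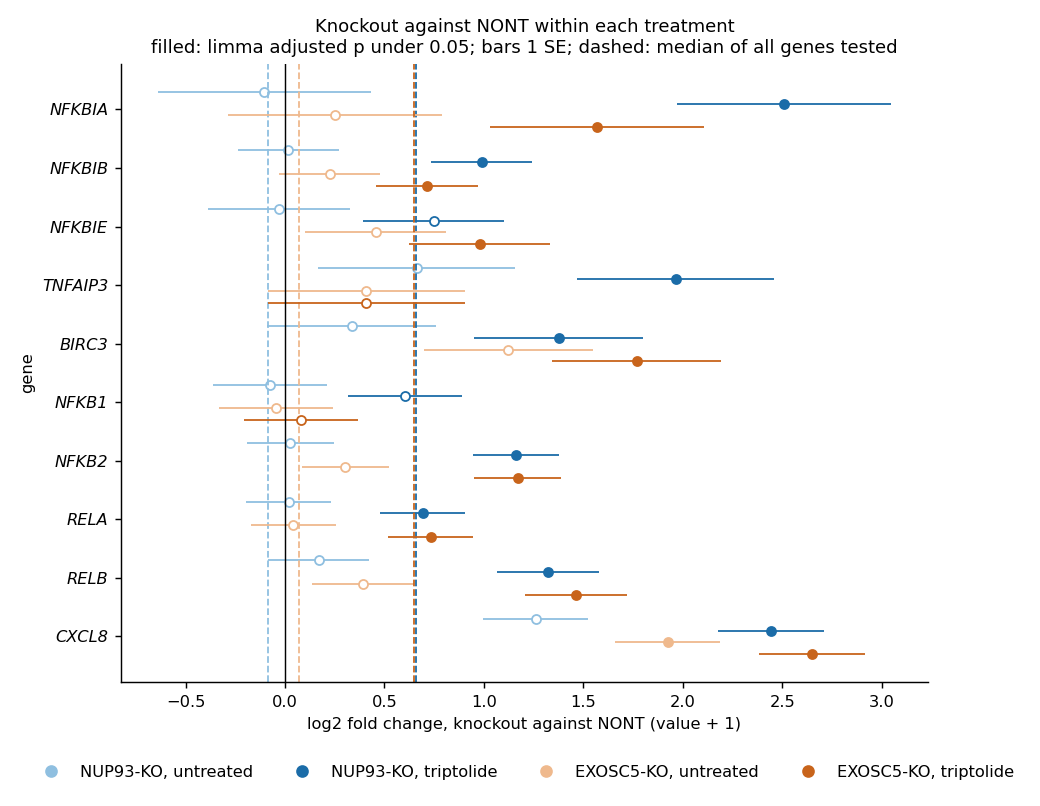
Log2 fold change of each gene in a knockout against NONT (x axis), untreated (pale) and under triptolide (dark), with 1 SE, filled where the limma adjusted p is under 0.05; dashed lines are the medians of all genes tested. CXCL8 is right of every other gene in untreated cells, at 1.26 and 1.92, and stands at 2.44 and 2.65 under triptolide.

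CXCL8 gave the largest difference of the 10 genes in treated EXOSC5-KO (2.65 ± 0.27, adjusted p = 2.3e-05), and in treated NUP93-KO it was 2.44 ± 0.27 (adjusted p = 7.4e-05). Both calls held in 21 of 21 alternatives, scales included. NFKBIA was 2.51 ± 0.54 in NUP93-KO (adjusted p = 0.0053) and 1.57 ± 0.54 in EXOSC5-KO (adjusted p = 0.0318), from values at the edge of detection in NONT. NFKB2 was 1.16 ± 0.22 and 1.17 ± 0.22 (adjusted p = 0.0029 and 0.0019), RELB 1.32 ± 0.26 and 1.46 ± 0.26 (0.0033 and 0.0013), and BIRC3 1.38 ± 0.43 and 1.77 ± 0.43 (0.0209 and 0.0070). RELA, at 0.69 ± 0.21 and 0.73 ± 0.21 (adjusted p = 0.0208 and 0.0165), was close to the median of all genes. NFKBIB was 0.99 ± 0.25 and 0.71 ± 0.25 (0.0110 and 0.0371). TNFAIP3 was called by limma in NUP93-KO (1.96 ± 0.50, adjusted p = 0.0102) and not in EXOSC5-KO (0.41 ± 0.50, adjusted p = 0.499). NFKBIE was called in EXOSC5-KO (0.98 ± 0.35, adjusted p = 0.0390) and not in NUP93-KO (0.75 ± 0.35, adjusted p = 0.0921). NFKB1 was called in neither (0.60 ± 0.29 and 0.08 ± 0.29, adjusted p = 0.0929 and 0.831). Over the 21 alternatives, EXOSC5-KO values ran from 0.20 to 1.49 for NFKBIE, −0.11 to 0.90 for NFKBIB and 0.60 to 2.10 for NFKBIA. The EXOSC5-KO calls held in 8 of 21 alternatives for NFKBIE, 8 for NFKBIB and 13 for NFKBIA. In NUP93-KO those of NFKBIA, TNFAIP3 and NFKBIB held in 19, 18 and 16. For NUP93-KO and EXOSC5-KO in turn, RELA held in 14 and 15 and BIRC3 in 16 and 17. RELB held in 18 and 20, and NFKB2 in 20 and 20.

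On the other scales most of these differences were not called. The shares of all genes called on those scales are not given here. With the same total or the median of ratios, 3 of the 10 genes were called in each knockout: NFKBIA, NFKB2 and CXCL8 for NUP93-KO cells and NFKB2, RELB and CXCL8 in EXOSC5-KO. With the same mitochondrial sum the call was left for CXCL8 alone (1.86, adjusted p = 0.0063, and 1.82, adjusted p = 0.0043), and RELA then gave 0.10 for NUP93-KO and −0.10 for EXOSC5-KO.

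Whether the triptolide response itself differed between genotypes was tested by the interaction term. No gene of the 10 was called by limma for NUP93-KO against NONT, and 6 were under an unadjusted p of 0.05, where 41.6% of all genes were. After adjustment 0.760% of all genes were called higher, 0.0145% lower and 0.775% in either direction. The smallest adjusted p-values were 0.0586 for NFKB2 (1.13 ± 0.31), 0.0612 for NFKBIA (2.61 ± 0.76), 0.0685 for RELB (1.15 ± 0.36) and 0.0690 for CXCL8 (1.18 ± 0.38). For EXOSC5-KO against NONT none was called and 3 were under an unadjusted p of 0.05, where 23.5% of all genes were, beside 0.319% of all genes called higher, 0.0145% lower and 0.333% in either direction. The largest difference there was NFKBIA, at 1.32 ± 0.76 (adjusted p = 0.260). Leaving out replicate 1 of untreated NONT, the lower of the pair, moved NFKB2 to 1.43 for NUP93-KO and 1.16 for EXOSC5-KO. The absence of calls depended in part on that library, and the share of all genes called without it is not given here.

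No difference between the 2 knockouts was called for these genes. EXOSC5-KO against NUP93-KO gave no call by limma among the 10 in untreated cells, with 1 under an unadjusted p of 0.05, where 7.92% of all genes were, beside 0.268% of all genes called higher, 0.0217% lower and 0.290% in either direction. Under triptolide none was called and 1 was under an unadjusted p of 0.05, where 10.7% of all genes were, beside 0.594%, 0.203% and 0.796%. For the response none was called and 0 were under an unadjusted p of 0.05, where 4.32% of all genes were, beside 0.00724%, 0.0145% and 0.0217%. TNFAIP3 had the widest treated difference, 16.0 and 13.3 in NUP93-KO against 7.33 and 2.38 in EXOSC5-KO (−1.56 ± 0.50, adjusted p = 0.200). CXCL8 differed by 0.21 ± 0.27 under triptolide (adjusted p = 0.851).

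AU-rich elements in the 3′UTR mark many short-lived messages, and these letters were counted in the canonical transcripts (GENCODE release 44). ATTTA was present in 6 of the 10 genes: 12 times in BIRC3, 9 in CXCL8, 5 in TNFAIP3, 3 each in NFKBIA and NFKB1, and 1 in NFKB2. NFKBIB, NFKBIE, RELA and RELB had none, and 74.3% of 12934 tested genes with a 3′UTR had at least 1. The longer TTATTTATT was present once each in TNFAIP3, BIRC3 and CXCL8, against 9.87% of those genes. On the spike-in scale TNFAIP3 kept 3.37% of its untreated level in NONT, BIRC3 15.8% and CXCL8 94.2%. The windows of 29 bases around it are shown for TNFAIP3 and CXCL8, with ATTTA in capitals.
TNFAIP3: gtaattcactttATTTAttttattacaaa
CXCL8: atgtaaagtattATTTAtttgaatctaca
NFKBIE, with no ATTTA in 1053 bases of 3′UTR, kept 2.66% in NONT. RELB, RELA and NFKBIB, also without ATTTA, kept 14.2%, 14.3% and 36.5%. Whether these letters bear on the share kept was not tested.

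The rest of the pathway was described by fixed lists. Of 4 other factors and IκB-like proteins (REL, NFKBID, NFKBIZ and BCL3) all 4 were called lower in NONT, with a median of −3.08. REL, encoding c-Rel, gave −3.04 ± 0.32, −1.63 ± 0.32 and −2.20 ± 0.32 for NONT and the NUP93-KO and EXOSC5-KO pools, in that order (limma adjusted p at most 0.000329), and BCL3, an IκB-like coactivator, −4.15 ± 0.44, −2.80 ± 0.44 and −2.12 ± 0.44 (adjusted p at most 0.000498). Of 26 kinases, receptors and adaptors upstream of NF-κB, 24 were called lower in NONT, 18 for NUP93-KO cells and 22 in EXOSC5-KO, with medians of −2.16, −1.03 and −1.19. Of all genes 90.0%, 55.1% and 64.3% were called lower, which is the background for the counts of each list. TNFRSF1A, the main TNF receptor, gave −6.06, −5.17 and −4.83, and MAP3K14, the NIK kinase of the noncanonical pathway, −5.47, −5.16 and −4.86, all called. Of 9 other negative regulators 9, 6 and 7 were called lower, with medians of −1.72, −0.78 and −1.06. ZC3H12A, encoding the RNase Regnase-1, gave −5.90, −2.41 and −3.18, and OTULIN, which removes linear ubiquitin chains, −3.54, −2.00 and −2.73, all called. No gene of these 3 lists was called higher under triptolide on the spike-in scale. With the median of ratios 6 of the 26 upstream genes and 4 of the 9 regulators were called higher in NONT. That scale sets the median gene near no change, and the share of all genes called higher on it is not given here. These counts are therefore not a result about the lists.

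Of 28 NF-κB target genes on the list, 27 were in the table and 15 passed the filter on low values. In NONT 12 of the 15 were called lower under triptolide, in NUP93-KO 8 and in EXOSC5-KO 7, with medians of −1.67, −1.23 and −1.24, and none was called higher. These counts stand beside 90.0%, 55.1% and 64.3% of all genes called lower. With the median of ratios 5, 4 and 4 were called lower and 4, 5 and 5 higher. The shares of all genes called on that scale are not given here. GADD45B, a stress-response gene, was 351 and 515 untreated and 2.10 and 10.7 treated in NONT, and IRF1, an interferon regulatory factor, 332 and 149 against 2.98 and 2.08. Their fold changes in NONT were −6.14 ± 0.52 and −6.00 ± 0.65, and in the knockouts they lay between −5.52 and −4.78, all called. TRAF1, an adaptor of TNF receptors, gave −3.86, −3.05 and −2.98 in the order NONT, NUP93-KO, EXOSC5-KO, all called. CCL2 and CCL20 are secreted chemokines, and neither was among the 8 and 7 called lower in the knockouts. CCL2 was 56.9 and 97.9 untreated and 41.9 and 36.4 treated in NONT, 118 and 142 against 186 and 218 for NUP93-KO cells, and 115 and 112 against 138 and 165 in EXOSC5-KO. CCL20 was 21.3 and 26.3 against 12.9 and 17.6 in NONT, 41.8 and 62.7 against 70.1 and 106 in NUP93-KO, and 71.6 and 112 against 84.3 and 97.2 in EXOSC5-KO. For both genes each treated knockout library was above each treated NONT library. Of all genes tested, 75.6% in NUP93-KO and 75.1% in EXOSC5-KO were likewise higher without overlap.

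**Figure D5:**
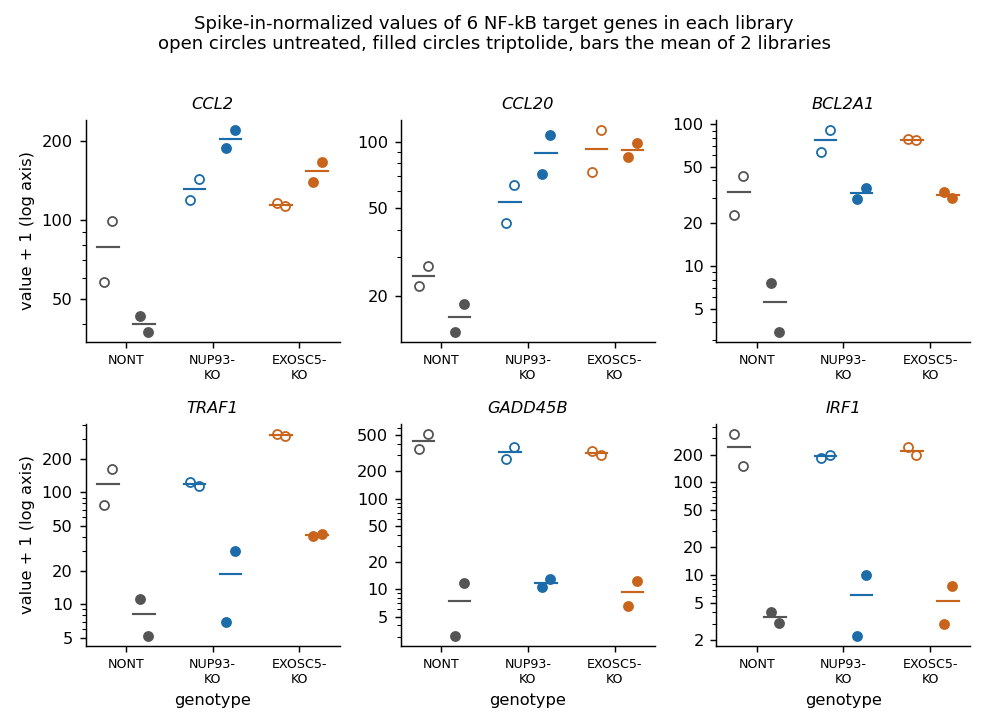
Spike-in-normalized value plus 1 (log axis) of 6 NF-κB target genes in each library, untreated (open) and under triptolide (filled), with bars at group means. GADD45B and IRF1 under triptolide are 10.7 or less in NONT, while CCL2 under triptolide is 138 to 218 in the knockouts and 36.4 to 41.9 in NONT.

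Under triptolide 7 of the 15 targets were called higher in NUP93-KO than in NONT and 10 in EXOSC5-KO, beside 41.9% and 39.2% of all genes. BCL2A1, an antiapoptotic BCL2 relative, stood at 28.5 and 34.4 for NUP93-KO, 32.0 and 28.9 for EXOSC5-KO, with 6.62 and 2.43 for NONT (2.66 ± 0.49 and 2.62 ± 0.49; limma adjusted p = 0.0028 and 0.0021). CCL20 was higher by 2.44 ± 0.41 and 2.51 ± 0.41 (adjusted p = 0.0018 and 0.0008), and CCL2 by 2.34 ± 0.32 and 1.92 ± 0.32 (adjusted p = 0.000617 and 0.000922). The calls for BCL2A1 and CCL20, and that for CCL2 in NUP93-KO, held on all 3 other scales. Untreated, none of the 15 was called in either knockout, with medians of 0.37 for NUP93-KO and 0.68 for EXOSC5-KO.

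The AP-1 factors, another family of immediate-early regulators, had a lower median. Of 14 listed, 13 were tested and 13, 11 and 13 were called lower for NONT and the NUP93-KO and EXOSC5-KO pools, in that order. These counts stand beside 90.0%, 55.1% and 64.3% of all genes called lower. The AP-1 medians were −4.28, −3.47 and −3.46, beside −2.71, −1.61 and −1.85 for the 10 genes described here. Those of all genes were −1.62, −0.92 and −1.08. The difference between the families was not tested. JUN was 337 and 493 untreated and listed at 0 in both treated libraries of NONT.

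Over the 12 libraries, the genes whose log2 values ran most like NFKBIA among 9946 well-expressed genes were ZNF609, TRMT5, ASB6, RRP1B and KMT5B, with Pearson r between 0.996 and 0.998. For RELA they were KCTD2, KBTBD2, GPAT4, ELF1 and SLX4, with r of 0.998 for each. The points share the 2 treatments and the library scale, and no p is given.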

How the data were processed

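The 10 genes and the comparison lists were chosen with earlier results of these data known. The deposited values are a spike-in-normalized signal per gene. Per the labels and the study's methods, the authors added ERCC RNAs to lysates of counted cells, selected polyadenylated RNA, made stranded libraries, estimated counts with kallisto 0.46.1, summed them per gene with tximport and divided them by DESeq2 size factors from the 92 ERCC transcripts, keeping protein-coding genes. An error in the cell count moves all genes of a library together.

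Whole reads could not be recovered: 29.1% to 35.8% of low values were whole multiples (tolerance 0.05) of the worth of 1 read, so no count test was used. ERCC RNAs made up 0.246% to 0.830% of each library. Values were tested as log2(value + 1) with limma 3.58.1 (R 4.3.3; lmFit, eBayes with trend), 6 group means over 12 libraries and 12 two-sided contrasts, over 13811 genes with an untreated mean of at least 10, with Benjamini-Hochberg adjustment and a threshold of 0.05. The fit was run on simulated data in which a minority of genes changed, up and down alike. Those data held no shift of most genes and no error of library scale, so neither was tested. Symbols came from GENCODE release 44 (19584 of 22379 IDs matched). SOD2 was not matched. Named genes were the 10, NUP93 and EXOSC5 and, from each list, at most 3 genes a direction: those of largest absolute fold change past the threshold in a triptolide response, and any past it in another comparison. CD68, PTPRC and the other markers were named after their values were seen, as were the response values of genes named for another comparison. Alternatives were 2 other pseudocounts (0.5 and 5), 2 other filters, 3 other scales, limma without trend, a replicate block and leaving out each library.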

Additional observations from a re-analysis of the deposited data

Results flagged for a closer look

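Of the genes listed, 2 were called by the limma interaction term for a response that differed between genotypes. Of all genes 0.775% were called for NUP93-KO against NONT and 0.333% for EXOSC5-KO against NONT. The lists searched held 10, 4, 26, 9, 15 and 13 tested genes. The line between the 2 called genes and the 10 genes is thin, since NFKB2 had an adjusted p of 0.0586. OTULIN, a negative regulator, differed by 1.54 ± 0.35 between NUP93-KO and NONT (adjusted p = 0.0497). It was 553 and 820.0 untreated and 55.3 and 58.7 treated in NONT, and 573 and 663 against 140.3 and 167 in NUP93-KO. FOSL2, an AP-1 subunit, differed by 1.75 ± 0.34 between NUP93-KO and NONT (adjusted p = 0.0377) and by 2.28 ± 0.34 between EXOSC5-KO and NONT (adjusted p = 0.0091). It was 2391 and 2918 untreated and 57.4 and 41.0 treated in NONT, 1939 and 1893 against 101 and 143 in NUP93-KO, and 3447 and 2552 against 289 and 249.5 in EXOSC5-KO. On the same-total scale the differences were 0.78 for OTULIN and 0.99 for FOSL2 in NUP93-KO, neither called (adjusted p = 0.301 for both), and 1.74 for FOSL2 in EXOSC5-KO, which was called (adjusted p = 0.0354). On the mitochondrial scale none of the 3 was called.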

How the results depend on the processing

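The scale moved the counts of calls in the triptolide responses and between treated cells, and left-out libraries moved those of the response differences. Of the 10 genes, those called lower in the triptolide response were 5 in NONT and 5 in EXOSC5-KO with the median of ratios, and those called higher were 1 in NONT (same total, and median of ratios), 2 and 3 in NUP93-KO (same total, median of ratios) and 2 in EXOSC5-KO (median of ratios), or 0 with the same mitochondrial sum. In untreated NUP93-KO 1 was called higher with the same total or the median of ratios. Under triptolide 3, 3 and 1 were called higher in either knockout with the same total, the median of ratios and the mitochondrial sum. Responses that changed sign with the median of ratios were NFKBIB (0.19 in NONT, 0.41 in NUP93-KO, 0.11 in EXOSC5-KO), NFKB2 (0.19, 0.58 and 0.49) and CXCL8 in NONT (1.52), and with the same total NFKB2 (0.25 in NUP93-KO, 0.21 in EXOSC5-KO) and CXCL8 in NONT (1.22). With the mitochondrial sum, NFKBIB (−0.11) and RELA (−0.10) in treated EXOSC5-KO against NONT changed sign. The cause was not tested. The shares of all genes called on these scales are not given, so the counts are not a result about the 10 genes.

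Leaving out 1 library at a time gave 9 to 9 genes lower in NONT, 6 to 7 in NUP93-KO and 8 to 9 in EXOSC5-KO, and 0 to 1 higher in EXOSC5-KO. It gave 4 to 9 higher in treated NUP93-KO and 4 to 8 in treated EXOSC5-KO against NONT, and 0 to 7 and 0 to 3 for the response differences in NUP93-KO and EXOSC5-KO. The treated counts fell to 4 without NONT replicate 2 in both knockouts, and in EXOSC5-KO to 4 and 5 without its own replicate 1 or 2. The NUP93-KO response difference gave 2 without treated NONT replicate 1 and 2 with an untreated mean of at least 50. Where a group was left with 1 library, it was assumed to vary like the other groups.

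Replicate numbers shared no gene-by-gene pattern between groups: correlations over genes of their deviations were −0.051 to 0.037. Such correlations cannot show a shift common to all genes of a replicate, so they do not settle whether libraries were paired. With the replicate number as a block the count of genes higher in the EXOSC5-KO response was 0, since CXCL8 was not called, and 118 of 120 single values kept their call. With 2 libraries a group, NFKBIA under triptolide in NONT rests on about 2 reads. Summing NFKBIB with its identical row, an alternative chosen after seeing the data, brought it from 228 to 455 per kilobase.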
